A study of Mus musculus with 6 samples.

Results

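The genes described here are Lcn2, Steap4 and 8 further genes of iron handling in the mouse prostate: Steap1, Steap2 and Steap3, the iron importer gene Slc11a2, the transferrin receptor gene Tfrc, the transferrin gene Trf, the lactoferrin gene Ltf and the iron exporter gene Slc40a1. They are 10 of the 19938 genes that the arrays measured through a probe set with 1 gene symbol, and all 10 were found. Where a gene had several such probe sets, the one with the highest mean log2 value over the 6 arrays stood for it. The series compared prostates of AR3 transgenic mice (n = 3) with those of wild-type littermates (n = 3), all taken at 4 weeks of age, with 1 array per mouse. AR3 is known as a splice variant of the androgen receptor that lacks the ligand-binding domain. Neither the promoter that drives the transgene nor the lobes that were dissected are given in the sources used here. Lcn2 and Steap4 were chosen because they were already known to rise in this same comparison, so the changes of the 10 genes are given as a description and support nothing beyond themselves.

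Cells take up ferric iron bound to transferrin through the transferrin receptor. Ferrireductases of the STEAP family (six-transmembrane epithelial antigen of prostate) reduce the iron in endosomes, and the divalent metal transporter encoded by Slc11a2 carries it into the cytosol. There it is used or stored in ferritin, and the only known cellular iron exporter, ferroportin (Slc40a1), releases it with the help of a multicopper ferroxidase such as hephaestin or ceruloplasmin. The liver hormone hepcidin triggers the degradation of ferroportin. Lipocalin-2 and lactoferrin work outside cells: the former binds bacterial siderophores, the small molecules with which bacteria capture iron, and the latter binds iron itself. Both proteins are stored in neutrophil granules and secreted by epithelia.

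Values are array intensities on a linear scale. Changes are differences of log2(intensity + 16), transgenic minus wild-type, with their standard error (SE), and adjusted p-values are from limma, corrected by the Benjamini-Hochberg method across the 28944 probe sets tested. Median intensity per array lay between 94.5 and 111. The 95th percentile of olfactory receptor probe sets, used as a scale of background since no detection calls were used, lay between 66.9 and 91.9 on the 6 arrays. Markers of the prostate were bright on every array, with the secretory transglutaminase gene Tgm4 at 13601 to 14894. The number of arrays limits the precision of every value. In whole tissue, a change in the number of cells of a type and a change in RNA per cell cannot be told apart.

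Of the 10 genes, 2 were higher in transgenic prostates (Lcn2 and Steap4), 1 was lower (Steap1) and 7 did not pass the adjusted threshold of 0.05. Over all 19938 genes, 1.17% were called higher, 0.451% lower and 1.63% in either direction. An unadjusted p under 0.05 in limma was reached by 2426 of the 19938 genes, 1376 of them higher and 1050 lower. The median log2 difference of the 10 was 0.15, against 0.01 over all genes. Because Lcn2 and Steap4 were picked from this comparison, nothing is read from the count of 3 against these percentages. The groups did not overlap for these 3 genes and for Slc40a1, a separation seen in 10.5% of all genes in the higher and 8.61% in the lower direction, 19.1% in all. Just inside the threshold lay Steap1, at an adjusted p of 0.042, and just outside it lay Slc40a1, at 0.091.

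Lcn2 had intensities of 203, 201 and 122 in wild-type mice 1, 2 and 3, and of 3286, 3323 and 3301 in transgenic mice 1, 2 and 3. Every transgenic prostate was thus many times brighter than any wild-type prostate. The means were 175 ± 46.4 (SD, n = 3) and 3303 ± 18.3 (SD, n = 3), an 18.8-fold ratio of means and a log2 difference of 4.15 ± 0.17 (SE; adjusted p 1.7e-05). The coefficient of variation was 26.5% among wild-type and 0.554% among transgenic mice. Of 478 genes whose transgenic mean lay within a factor of 2 of that of Lcn2, 2.09% varied as little among the transgenic mice. In the wild-type group, 94.8% of 7455 genes of like level varied as little as Lcn2 or less.

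Promoter sequences are shown for Lcn2, Steap4 and Steap1, since these are the members past the threshold, 2 of them higher and 1 lower. The RefSeq promoter table used here, on build GRCm38.p6, was matched for 7 of the 10 genes. Printed are the 250 bases before the annotated start, 5′ to 3′ on the gene's strand, with capitals where a searched motif matched on either strand. The windows are chr2:32387740-32387989 on the minus strand for Lcn2, chr5:7960222-7960471 on the plus strand for Steap4 and chr5:5749318-5749567 on the minus strand for Steap1.
Lcn2: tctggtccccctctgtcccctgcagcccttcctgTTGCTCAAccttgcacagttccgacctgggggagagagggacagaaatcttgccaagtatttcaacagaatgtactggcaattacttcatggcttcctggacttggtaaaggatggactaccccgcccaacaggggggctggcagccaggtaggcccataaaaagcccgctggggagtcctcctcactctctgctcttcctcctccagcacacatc
Steap4: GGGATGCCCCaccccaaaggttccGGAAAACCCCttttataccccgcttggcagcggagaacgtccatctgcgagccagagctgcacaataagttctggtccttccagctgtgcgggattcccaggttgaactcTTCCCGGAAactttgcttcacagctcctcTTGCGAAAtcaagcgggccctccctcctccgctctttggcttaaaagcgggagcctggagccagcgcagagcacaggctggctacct
Steap1: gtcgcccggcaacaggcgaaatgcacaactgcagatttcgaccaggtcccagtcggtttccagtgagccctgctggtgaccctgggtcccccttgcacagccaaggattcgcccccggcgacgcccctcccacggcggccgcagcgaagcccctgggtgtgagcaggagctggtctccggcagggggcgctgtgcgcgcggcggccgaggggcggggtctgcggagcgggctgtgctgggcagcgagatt

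The motifs were chosen after the sequences had been read. Those searched on both strands were the NF-κB consensus, the STAT motif TTCNNNGAA, the C/EBP motif TTGCNNAA, the androgen response element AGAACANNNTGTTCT and its half-site AGAACA, which the full element contains. The TATA box TATAAA was searched on the gene's strand alone. NF-κB, STAT3 and C/EBP are known as factors that induce acute-phase genes. The Lcn2 window held 1 C/EBP match, TTGCTCAA, 216 to 209 bases before the start. In Steap4 there were 2 NF-κB matches, 1 STAT match (TTCCCGGAA, 116 to 108 bases before the start) and 1 C/EBP match (TTGCGAAA, 87 to 80 bases before the start). Among the 32851 promoter windows of this length, 3.9% held the NF-κB consensus, 7.02% the STAT motif, 9.56% the C/EBP motif, 16.1% the androgen half-site and 7.59% the TATA box. The full androgen response element occurred in 3 of the windows (0.00913%), so nearly every window lacks it and its absence tells nothing about a gene. None of the searched letters occurred in the Steap1 window, and neither an androgen motif nor the TATA box in any of the 3. The windows of Steap2, Steap3 and Ltf, which are not printed, also held NF-κB, STAT or C/EBP matches. These matches describe letters in a short window and no binding was measured. The windows also differed in base composition, with G and C making up 56.4% of the Lcn2, 58.4% of the Steap4 and 70.8% of the Steap1 window.

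**Figure D1:**
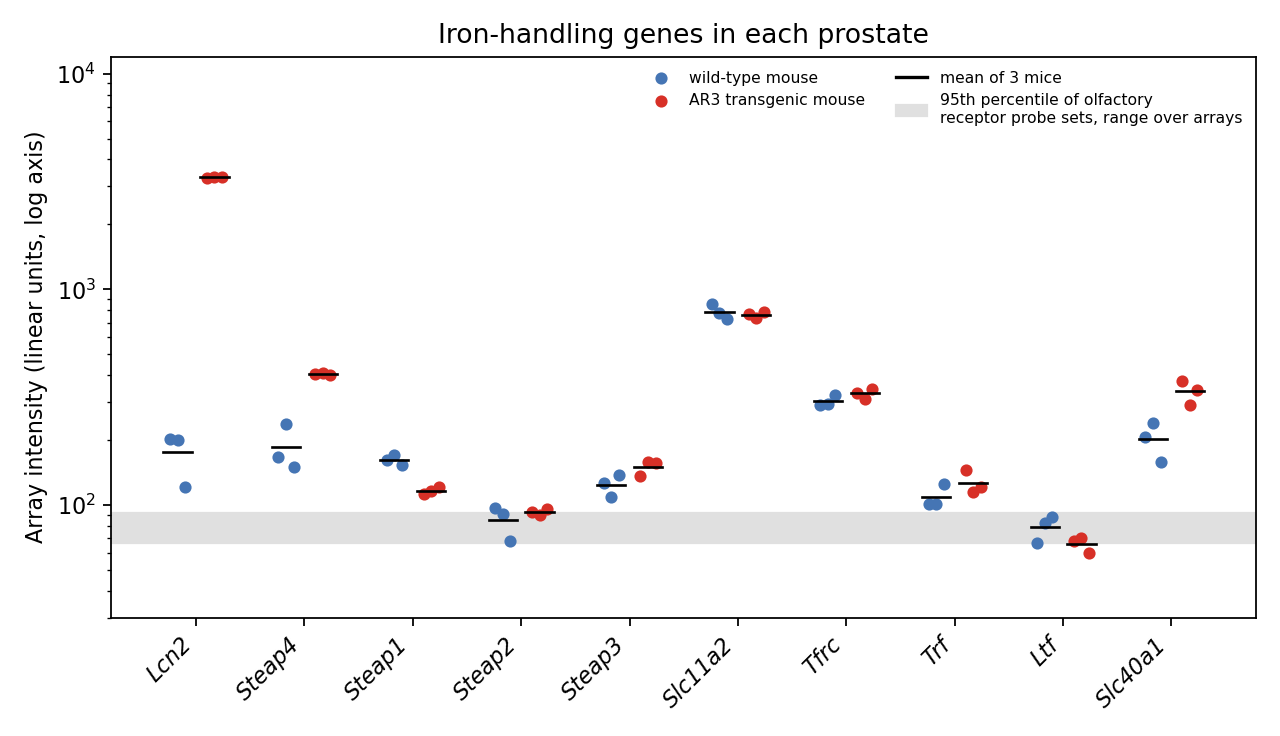
Array intensity (linear units on a log axis) of the 10 iron-handling genes in each prostate, with blue points for the 3 wild-type and red points for the 3 transgenic mice, black lines for the means and a grey band for the background scale of 66.9 to 91.9. Lcn2, Steap4 and Slc40a1 lie higher in every transgenic mouse than in any wild-type mouse and Steap1 lies lower, while the groups overlap for the other 6 genes.

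The 4 STEAP genes did not move together. Steap4, a plasma membrane and endosomal metalloreductase that is known to respond to inflammatory cytokines and to androgen, stood at 167, 238 and 150.0 in wild-type mice 1, 2 and 3 and at 407, 409 and 400.1 in transgenic mice 1, 2 and 3. All 3 transgenic values lay above the highest wild-type value. The means were 185 ± 47.0 and 405 ± 4.57 (SD, n = 3 each), a 2.19-fold ratio, with a log2 difference of 1.09 ± 0.15 (adjusted p 0.013). As for Lcn2, the transgenic mice were closer to each other than the wild-type mice, with coefficients of variation of 1.13% and 25.4%. The call on Steap4 was lost without any 1 transgenic array, at adjusted p of 0.061, 0.077 and 0.070 without transgenic replicates 1, 2 and 3, with log2 differences between 1.09 and 1.10.

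Steap1 moved the other way. This family member is a prostate cell surface antigen that lacks the NADPH-binding reductase domain of its relatives. It had 162, 170.4 and 154 in wild-type mice 1, 2 and 3 and 113, 116 and 121 in transgenic mice 1, 2 and 3, so that every transgenic value was lower than every wild-type value. Its means of 162 ± 8.27 and 117 ± 4.33 (SD, n = 3 each) gave a log2 difference of −0.42 ± 0.08 (adjusted p 0.042). Leaving out any 1 of the 6 arrays ended that call (adjusted p between 0.060 and 0.20) and left log2 differences between −0.46 and −0.39. With the mouse number as a block the adjusted p was 0.19, and with an added constant of 1 it was 0.057. Of 13 markers of prostate epithelium, 2 (the secretory genes Sbp and Spink1) were lower, none higher and 11 not called. That is 15.4%, against 1.63% of all genes, on a list chosen with earlier results of these data known. Of the 13 markers 7 had positive changes, with a median of 0.04 over the list. The bright secretory gene Msmb, at 11166 ± 844 and 7840 ± 1423 (SD, n = 3 each), had a change of −0.52 ± 0.14 (adjusted p 0.18). Over the 13 markers, summed intensity ran from 60516 to 64076 in wild-type and from 50849 to 53915 in transgenic mice. Whether the amount of prostate epithelium bears on the Steap1 values was not tested.

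Steap2 and Steap3 showed no difference past the threshold. Steap2, which is also enriched in prostate, neighbours Steap1 on chromosome 5 in the RefSeq table of assembly GRCm38.p6. Its intensities were 97.0, 90.8 and 68.0 in wild-type and 92.6, 89.7 and 96.1 in transgenic mice, within or just above the background scale, with a log2 difference of 0.11 ± 0.12 (adjusted p 0.75). The dimmer Steap2 probe set gave 0.04 ± 0.11. Steap3, the endosomal ferrireductase of the transferrin cycle in red cell precursors, had 126, 109 and 138 in wild-type and 136, 158 and 156 in transgenic mice. The groups overlapped, since wild-type mouse 3 lay above transgenic mouse 1, and the log2 difference was 0.24 ± 0.10 (adjusted p 0.40).

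Of the proteins that bind or carry lipocalin-2, the megalin gene Lrp2 was higher. Lrp2 encodes a large endocytic receptor for many filtered and secreted proteins, lipocalin-2 among them. Intensities of Lrp2 were 43.6, 50.9 and 55.2 in wild-type mice 1, 2 and 3 and 129, 118 and 119 in transgenic mice 1, 2 and 3, so the groups lay far apart. The log2 difference was 1.07 ± 0.09 (adjusted p 8.7e-04). The wild-type mean, 49.9 ± 5.83 (SD, n = 3), lay below the background scale, so the size of the change depends on the added constant: it was 1.28 with a constant of 1 and 0.71 with 64. Lrp2 passed the threshold under all 16 alternative settings, including those without any 1 array, with adjusted p from 4.7e-05 to 0.016.

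The other lipocalin-2 partners did not pass. Slc22a17, which encodes another cell surface receptor of lipocalin-2, had 264, 311 and 324 in wild-type and 331, 299.7 and 329 in transgenic mice, with a log2 difference of 0.09 ± 0.10 (adjusted p 0.76). Bdh2, whose product is linked to the synthesis of a mammalian siderophore, had a mean of 120.2 ± 17.2 in wild-type and 148 ± 2.19 in transgenic mice (SD, n = 3 each). The groups did not overlap, and the log2 difference of Bdh2 was 0.28 ± 0.10 (adjusted p 0.33). Of the 6 measured genes on this list, 1 was higher, none lower and 5 not called by limma, and 2 had an unadjusted p under 0.05, both with positive changes.

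The genes of transferrin, its receptor and the endosomal iron transporter did not pass the threshold. Tfrc, the receptor for transferrin-bound iron, had 291, 293 and 324 in wild-type and 332, 310.4 and 345 in transgenic mice, with a log2 difference of 0.11 ± 0.08 (adjusted p 0.63). Trf, which encodes the plasma iron carrier, had 102, 101 and 125 in wild-type and 145, 115 and 121 in transgenic mice, with a change of 0.19 ± 0.11 (adjusted p 0.56). For both genes wild-type mouse 3 reached into the transgenic range. Slc11a2, the divalent metal transporter, was at 854, 779.8 and 725 in wild-type and 769.8, 733 and 787 in transgenic mice, a change of −0.04 ± 0.09 (adjusted p 0.90). A missed threshold does not show that these levels were equal in the genotypes.

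Ltf, whose product is stored in neutrophil granules as is that of Lcn2, did not pass the threshold. It had 66.8, 82.3 and 88.4 in wild-type and 68.2, 70.2 and 60.1 in transgenic mice, with a log2 difference of −0.21 ± 0.11 (adjusted p 0.50). All 6 values lay at or below 91.9, the top of the background scale. In these prostates Ltf was therefore not separable from background by this measure.

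Among 12 further genes of iron uptake, 1 was higher, none lower and 11 not called by limma, and 2 had an unadjusted p under 0.05, both positive. The median log2 difference of the list was 0.10. The called gene was Heph, which stands on the export list too. The brightest genes of the list were the iron chaperone gene Pcbp2, at 3918 ± 291 in wild-type and 4212 ± 126 in transgenic mice, and the endosomal sorting gene Snx3, at 1213 ± 53.7 and 1129 ± 42.2 (SD, n = 3 each). Their log2 differences were 0.11 ± 0.08 and −0.10 ± 0.08, with adjusted p of 0.66 and 0.65.

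Ferroportin, encoded by Slc40a1, lay higher in all transgenic prostates without passing the threshold. Its intensities were 206, 240.2 and 158 in wild-type mice 1, 2 and 3 and 375, 292 and 342 in transgenic mice 1, 2 and 3. The groups did not overlap, but both spread widely, with SDs of 41.1 and 41.8. The means of 201 and 336 gave a 1.67-fold ratio and a log2 difference of 0.71 ± 0.15 (adjusted p 0.091). With an added constant of 64 the adjusted p of Slc40a1 was 0.043, and with an intensity trend and robust variances it was 0.025. The other 14 of 16 alternatives gave no call. Among them the adjusted p was 0.15 with a constant of 1 and 0.22 with the mouse number as a block. Without 1 array it ran from 0.090 to 0.33.

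Macrophages also express ferroportin, and their markers were examined beside it. None of 12 macrophage genes was called by limma, and 3 had an unadjusted p under 0.05, all positive. Changes were positive for 10 of the 12, and for 10747 of all 19938 genes. The median log2 difference was 0.18, against 0.01 over all genes. Summed over the 12 macrophage genes, intensity ran from 931 to 1086 in wild-type and from 1183 to 1337 in transgenic mice. The groups thus did not overlap. Taken singly, 1 of the 12 genes (C1qb) separated the groups, in the higher direction, as did 10.5% of all genes. For 6 of the 12 both means lay at or below 91.9. The complement gene C1qb stood at 58.3 ± 21.9 and 104 ± 12.9 (SD, n = 3 each), with a log2 difference of 0.73 ± 0.19 (adjusted p 0.17). C1qa and Csf1r had changes of 0.44 ± 0.17 and 0.34 ± 0.14 and C1qc, the brightest, one of 0.06 ± 0.08, with adjusted p of 0.37, 0.39 and 0.83. The part of these cells in the Slc40a1 values was not tested.

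Of 5 genes of iron export and plasma ferroxidases, 3 were higher (Heph, Cp and Hamp), none lower and 2 not called (Hephl1 and Hamp2), with a median log2 difference of 0.52. That is 60%, against 1.63% of all genes, but this list too was chosen with earlier results of these data known. Nothing is read from the share. Hephl1, a ferroxidase gene related to Heph, lay below the background scale at 24.3 ± 7.32 and 23.6 ± 1.90 (SD, n = 3 each), with a change of −0.0081 ± 0.13 (adjusted p 0.99). Heph, encoding membrane-bound hephaestin, had 66.5, 64.1 and 57.4 in wild-type and 102, 110.4 and 116 in transgenic mice, with no overlap. Its log2 difference was 0.67 ± 0.08 (adjusted p 0.0075), from a wild-type mean of 62.7 that lay below the background scale. The adjusted p of Heph was 0.055 and 0.057 without transgenic replicates 2 and 3, and 0.067 with the mouse number as a block.

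Cp, encoding the secreted ferroxidase ceruloplasmin, had 528, 584 and 519 in wild-type and 723, 803 and 838 in transgenic mice, again with no overlap. Its means of 544 ± 35.3 and 788 ± 58.7 (SD, n = 3 each) gave a log2 difference of 0.52 ± 0.09 (adjusted p 0.035). The call on Cp was lost without any 1 array, at adjusted p between 0.061 and 0.19. It was also lost with the mouse number as a block (0.12) and with a constant of 1 (0.067).

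Hamp, the hepcidin gene, had 22.7, 28.5 and 42.6 in wild-type and 88.8, 68.2 and 67.3 in transgenic mice. Its log2 difference was 0.96 ± 0.16 (adjusted p 0.036). The wild-type mean of 31.2 lay below the background scale and the transgenic mean of 74.8 within it, and the change was 1.27 with a constant of 1 and 0.54 with 64. The call on Hamp was kept without wild-type replicate 3 and lost without each of the other 5 arrays, at adjusted p of up to 0.15. It was also lost with the mouse number as a block (0.14) and with a constant of 1 (0.081). Hamp2, the neighbouring paralog, had a change of −0.05 ± 0.16 (adjusted p 0.93). Signal that these close relatives may share was not separated, since no probe sequences were used.

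**Figure D2:**
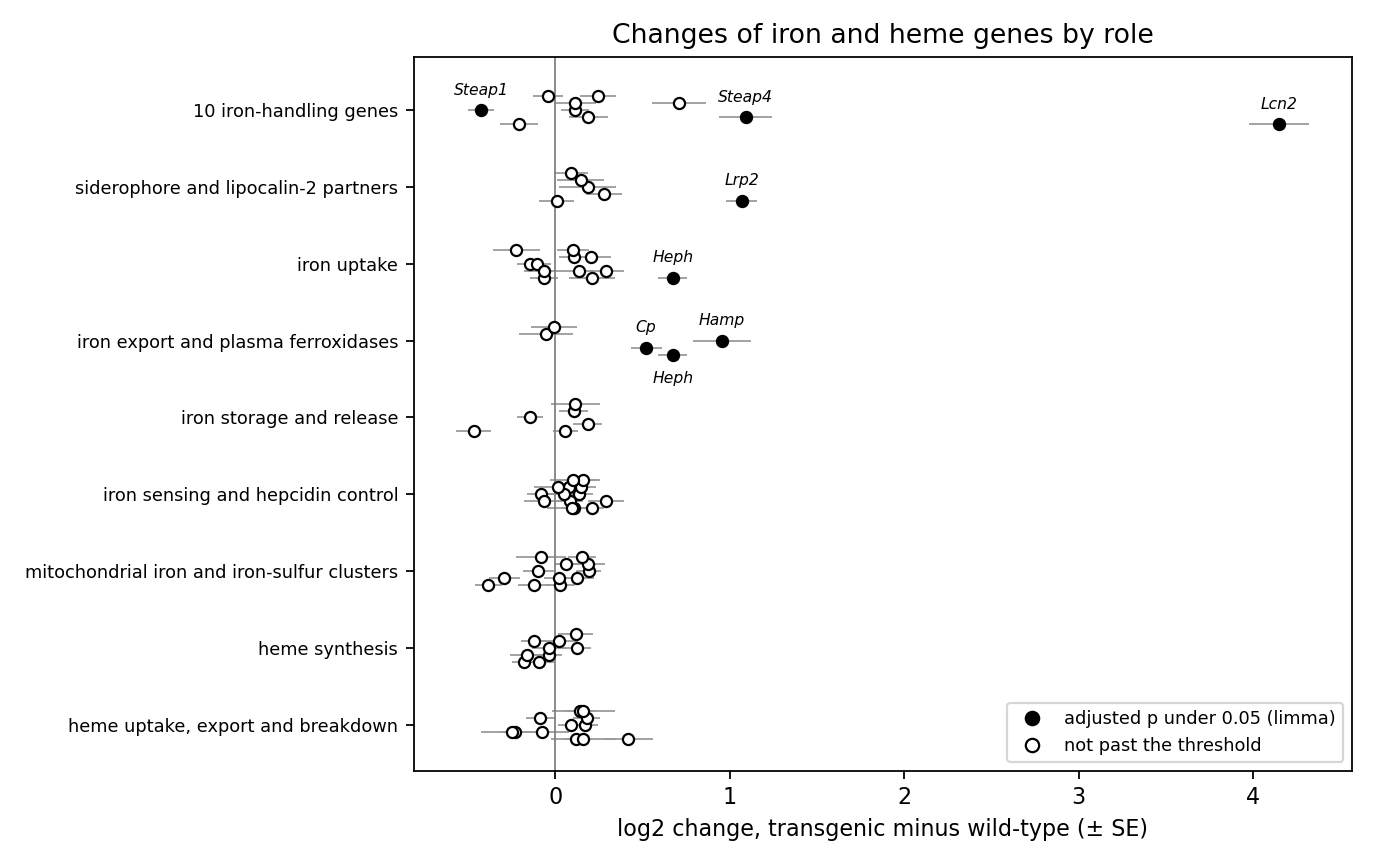
The log2 change (transgenic minus wild-type) with its SE for each measured gene of the 9 iron and heme lists, 1 row per list, with filled points at an adjusted p under 0.05 in limma. Heph stands on 2 lists. Lcn2 lies at 4.15, the other filled points lie between −0.42 and 1.09, and no gene of the 5 lists from storage to heme breakdown is filled.

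With the lists joined and the 10 genes left out, 71 of the 74 listed iron and heme genes were measured, of which 4 were higher (Lrp2, Heph, Cp and Hamp), none lower and 67 not called. That is 5.63% called, against 1.63% of all genes. Nothing is read from this share, since the lists were chosen with earlier results of these data known. The median log2 difference was 0.09, against 0.01 over all genes. At an unadjusted p under 0.05 there were 10 higher and 5 lower genes. Of all 19938 genes, 2426 passed that level, 1376 higher and 1050 lower. The 4 calls did not stand equally firm: without 1 array the count fell to between 1 and 3, and to 1 without transgenic replicates 2 or 3. It was 2 without wild-type replicates 1 or 2 or transgenic replicate 1, and 1 with the mouse number as a block.

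Iron storage genes did not pass the threshold. Fth1, the ferritin heavy chain, was at 6172 ± 226 in wild-type and 6424 ± 180 in transgenic mice, and Ftl1, the light chain, at 2220 ± 181 and 2524 ± 40.3 (SD, n = 3 each). Their log2 differences were 0.06 ± 0.07 and 0.19 ± 0.08, with adjusted p of 0.81 and 0.43. Ncoa4, the receptor that delivers ferritin to lysosomes and is also known as a coactivator of the androgen receptor, was at 2626, 2916 and 3197 in wild-type and 2188, 2175 and 1933 in transgenic mice. Its groups did not overlap, and its log2 difference of −0.47 ± 0.10 had an adjusted p of 0.084. The other Ncoa4 probe set gave nearly the same values on each array and a change of −0.47 ± 0.10. Of 6 storage genes 0 were called by limma, and Ncoa4 alone had an unadjusted p under 0.05. Pcbp1, an iron chaperone that loads ferritin, was at 1134 ± 56.6 and 1024 ± 14.6 (SD, n = 3 each), with a change of −0.14 ± 0.07 (adjusted p 0.49). Over the alternatives, Ncoa4 was called lower in 5 of 16, with adjusted p from 0.0066 to 0.34.

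Regulators of iron levels did not pass the threshold. Of 14 genes of iron sensing and hepcidin control 0 were called by limma, 2 had an unadjusted p under 0.05 and 12 had positive changes, with a median of 0.10. Those 2 were Neo1, the neogenin gene of the hepcidin pathway (0.21 ± 0.07, adjusted p 0.31), and Hfe, the gene mutated in hereditary haemochromatosis (0.29 ± 0.10, adjusted p 0.32). The groups did not overlap for either gene. Ireb2, an iron regulatory protein that binds messenger RNAs of ferritin and transferrin receptor, was at 1067 ± 57.0 and 1151 ± 20.2 (SD, n = 3 each), with a change of 0.11 ± 0.07 (adjusted p 0.62). Bmp2, a ligand of the pathway that induces hepcidin, and Hif1a, a subunit of a hypoxia-responsive factor, had changes of 0.14 ± 0.08 and 0.15 ± 0.09, with adjusted p of 0.54 and 0.57.

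Genes of mitochondrial iron and iron-sulfur clusters (12 measured) had 0 calls in limma, with 1 higher and 2 lower at an unadjusted p under 0.05. Slc25a37, the mitochondrial iron importer mitoferrin-1, had 275, 304 and 303 in wild-type and 231, 219 and 214 in transgenic mice. The groups did not overlap, and the change was −0.38 ± 0.08 (adjusted p 0.076). It was called lower in 6 of 16 alternatives, with adjusted p from 0.012 to 0.33. Iscu, the scaffold on which iron-sulfur clusters are built, had a change of −0.29 ± 0.09 (adjusted p 0.23), and its other probe set gave −0.25 ± 0.09. In the other direction, the ferredoxin gene Fdx1 had 185, 194 and 197 in wild-type and 213, 229 and 222 in transgenic mice, with no overlap and a change of 0.19 ± 0.07 (adjusted p 0.35). Hspa9, the brightest gene of the list and a mitochondrial chaperone, was at 1708 ± 32.8 and 1782 ± 19.2 (SD, n = 3 each), with a change of 0.06 ± 0.07 (adjusted p 0.78).

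Heme genes showed no calls either. Of 9 measured heme synthesis genes 0 were called by limma and 1 had an unadjusted p under 0.05, the coproporphyrinogen oxidase gene Cpox, with a change of −0.18 ± 0.07 (adjusted p 0.38). Tmem14c, a mitochondrial transporter of porphyrin precursors, and Alad, an early enzyme of the pathway, had changes of −0.16 ± 0.10 and 0.12 ± 0.08, with adjusted p of 0.55 and 0.58. Of 12 genes of heme uptake, export and breakdown 0 were called, and 2 higher and 1 lower had an unadjusted p under 0.05. Lrp1, a receptor that clears heme bound to hemopexin, had 264, 294 and 228 in wild-type and 299, 353 and 420 in transgenic mice, with a change of 0.42 ± 0.14 (adjusted p 0.28). Hmox1, the inducible heme oxygenase, was at 76.3 ± 2.56 and 88.1 ± 4.48 (SD, n = 3 each), within the background scale, with a change of 0.17 ± 0.07 (adjusted p 0.41). Slc46a1, a folate transporter gene that was also described as a heme carrier, went the other way, at 193, 222 and 225 in wild-type and 178, 175 and 185 in transgenic mice. Its groups did not overlap, and its change was −0.23 ± 0.08 (adjusted p 0.33). The brightest genes of the list, the heme transporter gene Slc48a1 and the constitutive heme oxygenase gene Hmox2, had changes of 0.18 ± 0.08 and 0.09 ± 0.08, with adjusted p of 0.41 and 0.69.

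Lcn2 is known as an acute-phase gene, and 4 of 28 measured acute-phase and cytokine-induced genes were higher in transgenic prostates, none lower and 24 not called. That is 14.3%, against 1.63% of all genes, with a median log2 difference of 0.13 against 0.01. The list was chosen with earlier results of these data known, so nothing is read from this share. Lrg1, a leucine-rich secreted glycoprotein of the acute phase, had 61.0, 62.1 and 46.3 in wild-type and 226, 216 and 262 in transgenic mice. The transgenic values lay well above the wild-type ones, with a log2 difference of 1.79 ± 0.12 (adjusted p 2.1e-04). The wild-type mean of Lrg1 lay below the background scale, and the change was 2.04 and 1.31 with constants of 1 and 64. It was called under all 16 alternatives.

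The other called genes of this list were Lbp, Orm1 and Cp. Lbp, which binds bacterial lipopolysaccharide, had 434, 475 and 437 in wild-type and 645, 699 and 648 in transgenic mice, with a change of 0.55 ± 0.08 (adjusted p 0.014). Orm1, an acute-phase glycoprotein of the lipocalin family, went from 51.3 ± 7.38 to 85.6 ± 2.66 (SD, n = 3 each), all at or near the background scale, with a change of 0.60 ± 0.10 (adjusted p 0.028). The call on Lbp was lost without any 1 transgenic array, at up to 0.093. That on Orm1 was lost without wild-type replicate 2 or any 1 transgenic array, at up to 0.14, and with the mouse number as a block their adjusted p were 0.068 and 0.12.

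The serum amyloid genes, acute-phase genes of liver and of inflamed epithelium, did not follow Lcn2. They and Hp are shown because they are the best known genes of the list and were singled out after their values were seen. Saa1, Saa2 and Saa3 had log2 differences of 0.30 ± 0.18, −0.11 ± 0.13 and 0.01 ± 0.15, with adjusted p of 0.55, 0.79 and 0.99, and every value lay below 91.9. The haptoglobin gene Hp had 57.9, 70.2 and 100.4 in wild-type and 70.8, 59.3 and 51.4 in transgenic mice, with a change of −0.25 ± 0.17 (adjusted p 0.62). Birc3, an NF-κB target that is among the brightest genes of the list, had a change of −0.06 ± 0.09 (adjusted p 0.84).

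Neutrophil genes lay at the background scale in both genotypes. Of 15 measured, 0 were called by limma, and 2 higher and 1 lower had an unadjusted p under 0.05. For all 15 both means lay at or below 91.9. The groups did not overlap for 2 of the 15 in the higher and 2 in the lower direction. Over all genes 10.5% and 8.61% were separated in this way. Summed over the 15 genes, intensity ran from 613 to 722 in wild-type and from 651 to 671 in transgenic mice. The transgenic range thus lay inside the wild-type range. S100a8 and S100a9, the most abundant cytosolic proteins of neutrophils, had means of 24.0 and 37.6 in wild-type and 23.8 and 33.3 in transgenic mice. The granule genes Ngp and Camp had means of 41.7 and 72.0 in wild-type and 34.4 and 80.6 in transgenic mice. None of these defining markers was listed at 0. Ly6g, a neutrophil surface marker, had 29.6, 27.8 and 27.9 in wild-type and 45.7, 43.2 and 30.2 in transgenic mice, below the background scale, with a change of 0.31 ± 0.12 (adjusted p 0.34). The changes of Itgam, Retnlg and Elane were 0.28 ± 0.08, −0.25 ± 0.10 and −0.14 ± 0.08, with adjusted p of 0.22, 0.38 and 0.53.

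**Figure D3:**
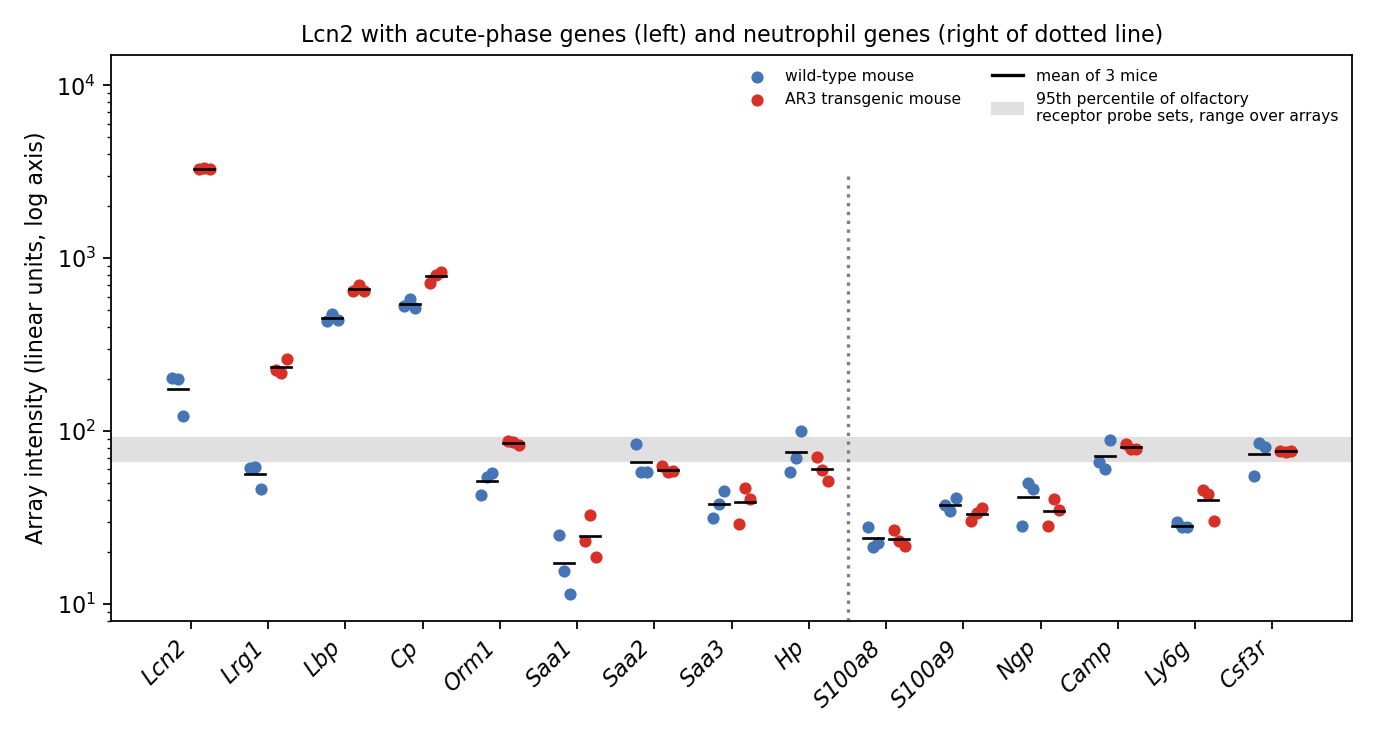
Array intensity (linear units on a log axis) in each prostate of Lcn2 with 8 acute-phase genes, left of the dotted line, and 6 neutrophil genes, right of it, with colours, lines and grey band as for the 10 iron-handling genes. Lcn2, Lrg1, Lbp, Cp and Orm1 separate the genotypes, as does the neutrophil gene Ly6g, which lies below 91.9 in all 6 mice. S100a8, S100a9, Ngp and the serum amyloid genes also lie below 91.9 in all 6 mice, and their groups overlap.

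Within the lipocalin family, which shares a barrel fold that holds small hydrophobic molecules, Orm1 alone among the other members passed the threshold. Of 19 other measured family genes, 1 was higher, none lower and 18 not called by limma. That is 5.26%, against 1.63% of all genes, on a list chosen with earlier results of these data known. At an unadjusted p under 0.05 there were 2 higher and 1 lower, and the median log2 difference was −0.0045. For 13 of the 19 both means lay at or below 91.9. The brightest, the apolipoprotein gene Apod, varied between mice of 1 genotype, at 483, 169 and 201 in wild-type and 283, 366 and 527 in transgenic mice, with a change of 0.54 ± 0.38 (adjusted p 0.62). Orm2, the next brightest, had a change of 0.05 ± 0.17 (adjusted p 0.94).

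The genes most like Lcn2 over the 6 arrays were Ceacam10, Klk1b27, Amy1, Spinkl and Spink11. Likeness was measured as the root mean square difference of log2(intensity + 16) values after each gene was centred on its wild-type mean, and was 0.22, 0.25, 0.34, 0.39 and 0.43 for these genes. Of the 5, Amy1 alone had a wild-type mean above the background scale, at 132, so Lcn2 and Amy1 were the pair whose starting level could be measured. For Steap4 the nearest genes were Mid1ip1, Crim1, Pwwp3b, Foxc1 and Zfp985, at 0.13, 0.15, 0.15, 0.16 and 0.16. Mid1ip1, a regulator of fatty acid synthesis, had 275, 302 and 235 in wild-type and 546, 541 and 621.5 in transgenic mice, with a log2 difference of 1.03. Crim1, a membrane protein that binds bone morphogenetic proteins, had 399, 458 and 361 in wild-type and 944, 992 and 1005 in transgenic mice, with a change of 1.24. These measures follow the difference between genotypes and are not evidence of a shared control.

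Markers of tissue that adjoins the prostate varied between the mice. Whether dissection or expression within the prostate set their levels was not tested. Summed over 11 seminal vesicle genes, intensity was 4932, 790 and 958 in wild-type mice 1, 2 and 3 and 4513, 3057 and 10583 in transgenic mice 1, 2 and 3. The defining marker Svs2 had 1769, 20.4 and 25.6 in wild-type and 50.6, 24.6 and 470 in transgenic mice. Svs4 had 622, 50.1 and 39.2 against 249, 60.3 and 2345, and Svs5 had 1020, 12.9 and 17.9 against 345, 15.5 and 2861. These markers were thus dim in transgenic mouse 2, whose sum held Pate4 at 1203, Ceacam10 at 949 and Spinkl at 474. Without wild-type replicate 1 and transgenic replicate 3 together, an alternative chosen after the data were seen, the log2 differences of Lcn2, Steap4 and Steap1 were 4.26, 1.04 and −0.45, with adjusted p of 1.5e-03, 0.16 and 0.19. Of the 11 seminal vesicle genes 2 were higher (Ceacam10 and Spinkl, both also among the 5 genes most like Lcn2), 1 lower (Svs3a) and 8 not called. Of 10 genes of vas deferens and epididymis 2 were higher (Adam7 and Wfdc8), none lower and 8 not called. That is 27.3% and 20%, against 1.63% of all genes. Both lists were chosen with earlier results of these data known, so nothing is read from these shares. The epididymal gene Adam7 also separated the genotypes, at 17.1 ± 2.70 and 159 ± 7.94 (SD, n = 3 each). In the list of vas deferens and epididymis 2 higher and 3 lower genes had an unadjusted p under 0.05. Its brightest gene, Defb1, was at 3550 ± 385 and 2553 ± 343 (SD, n = 3 each), a change of −0.48 ± 0.12 (adjusted p 0.16). Summed intensity of the 10 genes ran from 3534 to 4440 in wild-type and from 2885 to 3581 in transgenic mice. Whether Lcn2 RNA came from prostate epithelium or from such tissue was not tested. Summed intensities of 6 erythroid genes, relevant to Tfrc and Steap3, ran from 382 to 471 in wild-type and 380.1 to 424 in transgenic mice, and 0 of them were called by limma, with 1 at an unadjusted p under 0.05. Of 6 urothelial genes 0 were called and 1 had an unadjusted p under 0.05. Their sums ran from 3106 to 3835 in wild-type and from 2437 to 2965 in transgenic mice. Upk1a, the brightest urothelial gene, had means of 2287 and 1416, with a change of −0.68 ± 0.14 (adjusted p 0.083). Upk1b, the next brightest, had means of 873 and 881, and 2 of the 6 changes were positive.

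**Figure D4:**
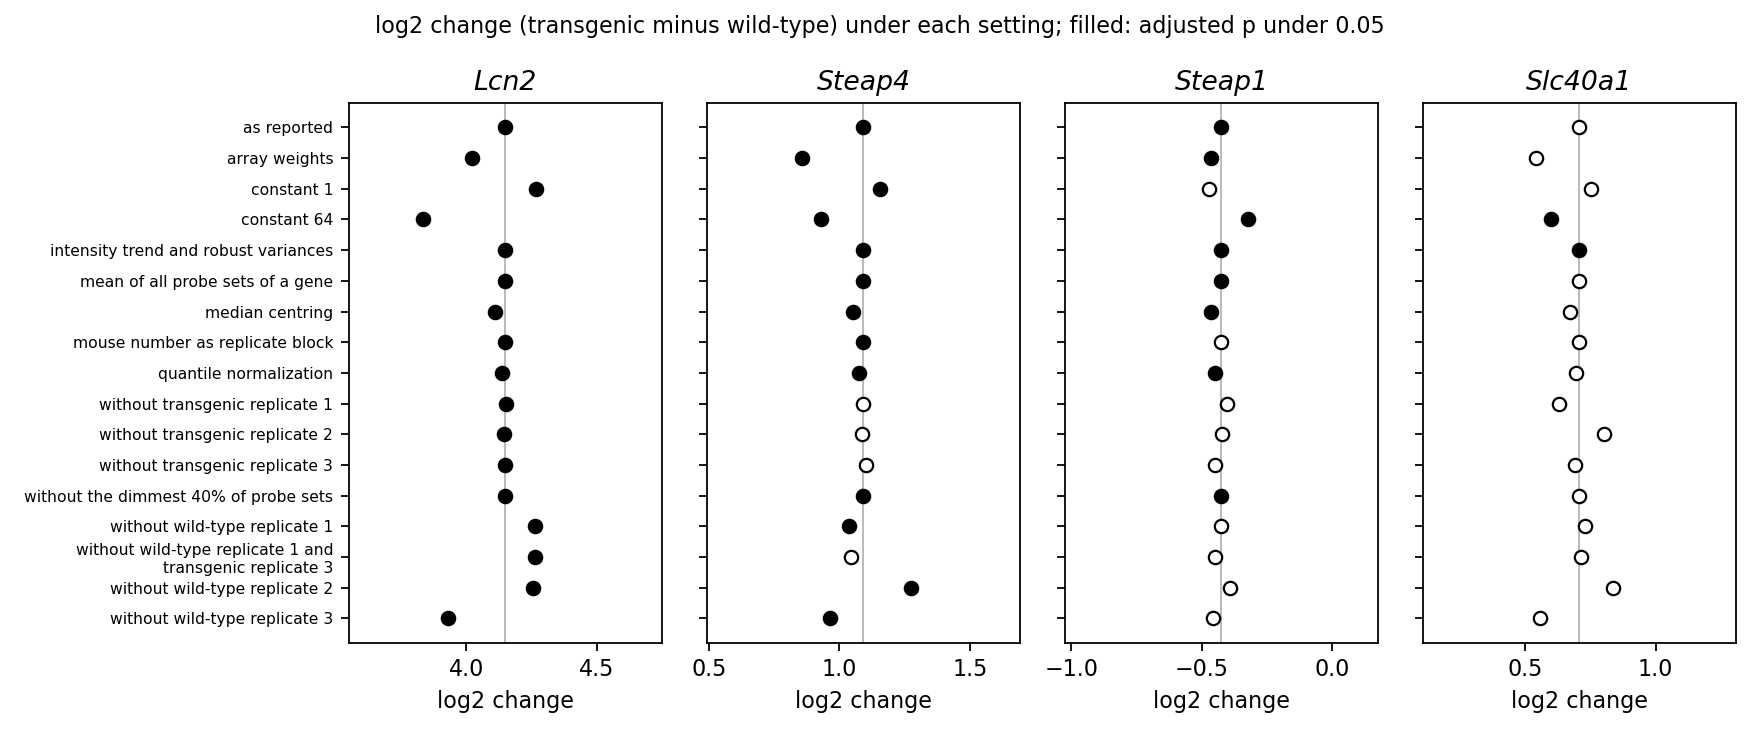
The log2 change (transgenic minus wild-type) of Lcn2, Steap4, Steap1 and Slc40a1 under the reported analysis (top row, grey line) and each of 16 alternatives, with filled points at an adjusted p under 0.05; each panel spans the same width. Lcn2 is filled in every row, Steap4 in 12 of the 16 alternatives, Steap1 in 7 and Slc40a1 in 2.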

How the data were processed

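The deposited table held array intensities on a linear scale, 1 value per probe set and array, from 0.87 to 21952 as read from the deposited values. Per the labels' protocols, the authors purified total RNA from dissected prostates on columns, removed DNA and labelled it with biotin for Affymetrix whole-transcript arrays. How probes were summarised and normalized is not stated in those sources. The intensities were taken as normalized and used as deposited. Median intensity (94.5 to 111) and the background scale (66.9 to 91.9) still differed between arrays.

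Of 35512 probe sets, 6568 with identifiers below the gene-level range were set aside as controls, as known for this array type, leaving 28944, of which 21789 had 1 gene symbol in the platform annotation. In R 4.3.3, limma 3.58.1 (lmFit, eBayes) tested log2(intensity + 16), two-sided, with no covariate and Benjamini-Hochberg adjustment over all 28944, threshold 0.05. Each sample is a mouse of its own per the labels. An exact permutation test of 3 against 3 cannot go below 0.1 and was not used. The code was tested on simulated data.

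A gene with several probe sets was represented by that with the highest mean of log2(intensity + 16). The mean of linear intensities was used first and gave 326 called genes in place of 324. It was replaced after an earlier analysis of these data was seen to report 324. It concerned 3 genes, none of them in a list used here. The 10 genes and 17 further lists were chosen by function with earlier results of these data known. Of 211 listed symbols, 193 were measured. Named are the 10 genes and, in each list, the called genes (up to 6, otherwise the 3 with the smallest p) and the 2 brightest. For vas deferens and epididymis the called genes and the brightest alone are named, and for urothelial markers the 2 brightest alone. For erythroid markers counts and sums alone are given. Named too are the defining markers of neutrophils and seminal vesicle, and the 5 genes most like Lcn2 and most like Steap4. Alternatives were other added constants (1, 64), array weights, median centring, quantile normalization, robust variances with an intensity trend, the mouse number as a block, a filter that drops the dimmest 40% of probe sets, the mean of a gene's probe sets and leaving out each array.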

Additional observations from a re-analysis of the deposited data

How the results depend on the processing

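Over the 16 alternatives Lcn2 kept its direction and its call, with log2 differences from 3.83 to 4.27. Steap4 kept its direction and was called in 12, Steap1 kept its direction and was called in 7, and Slc40a1, not called as reported, was called in 2. Adjusted p below are from limma. Without 1 array the log2 difference of Steap4 ran from 0.97 to 1.27 (adjusted p 0.0016 to 0.077) and that of Steap1 from −0.46 to −0.39 (0.060 to 0.20). The call on Steap1 was also lost with a constant of 1 (−0.47, adjusted p 0.057) and with a replicate block on the mouse number (−0.42, 0.19). Slc40a1 passed with a constant of 64 (0.60, 0.043) and with an intensity trend and robust variances (0.71, 0.025). Its adjusted p ran from 0.025 to 0.33 over all alternatives. Among genes not called, Slc11a2 changed sign without wild-type replicate 1 (0.020, with a range of −0.10 to 0.020 over single arrays) and Steap2 without wild-type replicate 3 (−0.015, with a range of −0.015 to 0.20).

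Of the 71 other iron and heme genes, 4 were called higher and 0 lower as reported. The count called higher was 2 with a constant of 1, 1 with the replicate block, and 1 to 3 without single arrays. The count called lower was 2 with a constant of 64, 1 with quantile normalization, 2 with median centring, 1 without the dimmest 40% of probe sets, 2 with an intensity trend, 3 with array weights and 0 to 1 without single arrays. The genes called lower there were Ncoa4, Slc25a37 and Iscu. Over all probe sets 305 were called higher and 120 lower. With array weights there were 686 and 516, with the replicate block 200 and 50, with median centring 264 lower (314 higher), and with an intensity trend 224 lower. Without single arrays the counts ran from 193 to 328 higher and from 41 to 191 lower.

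Without wild-type replicate 1 and transgenic replicate 3 together, an alternative chosen after seeing the data, 168 probe sets were called higher and 69 lower, 1 of the 71 iron and heme genes was higher (Lrp2), and Steap4 (1.04, adjusted p 0.16) and Steap1 (−0.45, 0.19) were not called. The replicate numbers were not taken to pair the mice, since the deviations of same-numbered mice from their group means correlated at −0.04, 0.05 and −0.16 for numbers 1, 2 and 3. The cause of these shifts was not tested. Dim signal limits Ltf, Steap2, Hamp and the wild-type values of Lrp2, Heph and Lrg1.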
